A study of Mus musculus with 6 samples.

Results

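The matrix metalloproteinases (MMPs), the ADAMTS proteases and the tissue inhibitors of metalloproteinases (TIMPs) were followed in epididymal white adipose tissue (eWAT) of mice with tumor-induced cachexia. The members were taken by symbol: a protein-coding gene of the deposited count table belonged to the set when its name began with Mmp, Adamts or Timp followed by a number. By this rule 45 of the 54532 genes listed were members, of which 22 were MMPs, 19 were ADAMTS proteases and 4 were TIMPs. A further gene of the MMP series, Mmp1a, is annotated as a polymorphic pseudogene and was left out.

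RNA-seq had been carried out on bulk eWAT of C57BL/6 mice, with 3 samples in each of the 2 groups. Cachectic mice had received LLC cells under the skin, a tumor line of Lewis lung carcinoma that grows in this mouse strain, and counted as cachectic after a marked loss of body weight. Control mice are labelled as controls, and what they were injected with is not given in the sources used here. Male mice of 6 to 10 weeks were used, and the tissue was taken on day 21. The labels name no deleted gene and no drug in either group, the tumors came from 1 cell line, and whole eWAT was extracted with the vessels, blood and immune cells it held. The labels number the samples without saying which mouse each came from, so that the p-values measure the spread between these samples. In bulk tissue, fewer cells of a type and less RNA per cell cannot be told apart.

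MMPs are zinc proteases that are secreted, or held at the cell surface, as inactive precursors and that cut collagens, gelatin and other matrix proteins once activated. ADAMTS proteases are secreted relatives with thrombospondin repeats. Some of them cut the large proteoglycans aggrecan and versican, and others trim the ends of procollagen so that fibrils can form. TIMPs bind to the active site of these enzymes, and in fat the balance of proteases and inhibitors is part of how the matrix around adipocytes is remodelled when they grow or shrink.

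The total count per sample lay between 14928766 and 18855546. Levels are CPM, the counts scaled to a common library size, for the comparison of 1 gene between samples, and FPKM, which also divides by gene length, for the comparison of different genes. The 9 adipocyte markers checked, among them adiponectin, summed to between 25460.3 and 32622 CPM in the control samples and to between 26867 and 41788 CPM in the cachectic samples, with 1 called higher and 1 lower. Control replicate 1 stood apart from the other libraries. It held 107 genes with at least 200 counts there and no more than 1/20 of that in every other library. Each other library held at most 1 such gene. Calls of the members are given without it as well, whereas the family sums and the listed genes are not. Markers that could come from the neighbouring epididymis, 6 in number, summed to 3.46 CPM in control replicate 1 and to between 0.246 and 1.11 CPM elsewhere, and their part in the result was not tested.

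Of the 45 members, 43 had at least 1 count and 34 were abundant enough to be tested, with 15 MMPs, 15 ADAMTS proteases and all 4 TIMPs. A member was called when its adjusted p-value (edgeR quasi-likelihood test, Benjamini-Hochberg over all 16003 genes tested) was under 0.05. In cachectic mice 4 members were upregulated, namely Mmp8, Mmp9, Mmp11 and Adamts4, and 12 were downregulated, namely Mmp2, Mmp15, Mmp19, Mmp23, Adamts2, Adamts5, Adamts10, Adamts14, Adamts15, Adamts16, Adamts19 and Timp2. The 16 called members were 47.1% of the 34 tested, where 17.6% of all genes tested were called, 9.0% higher and 8.63% lower. Mmp8 reached the minimum of the filter in cachectic samples alone, and Adamts16 and Adamts19 did so in control samples alone, so that these 3 had to differ in order to be tested.

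By family, 3 MMPs rose, 4 fell and 8 were not called. Among the ADAMTS proteases 1 rose, 7 fell and 7 were not called, and among the TIMPs 1 fell and 3 were not called. Over the tested members the median log2 fold change was -0.15 for the MMPs, -0.57 for the ADAMTS proteases and -0.05 for the TIMPs, against -0.003 over all genes tested. The CPM of the 2 groups did not overlap for 19 of the 34 tested members, that is for 9 MMPs, 9 ADAMTS proteases and 1 TIMP, where 40.5% of all genes tested showed no overlap. Without control replicate 1, 2 MMPs and no ADAMTS protease were called higher, and 3 MMPs, 4 ADAMTS proteases and no TIMP were called lower. Fewer genes were called in that fit as a whole, with 1101 higher and 1086 lower of 16370 tested, against 1440 and 1381 of 16003 with all samples.

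**Figure D1:**
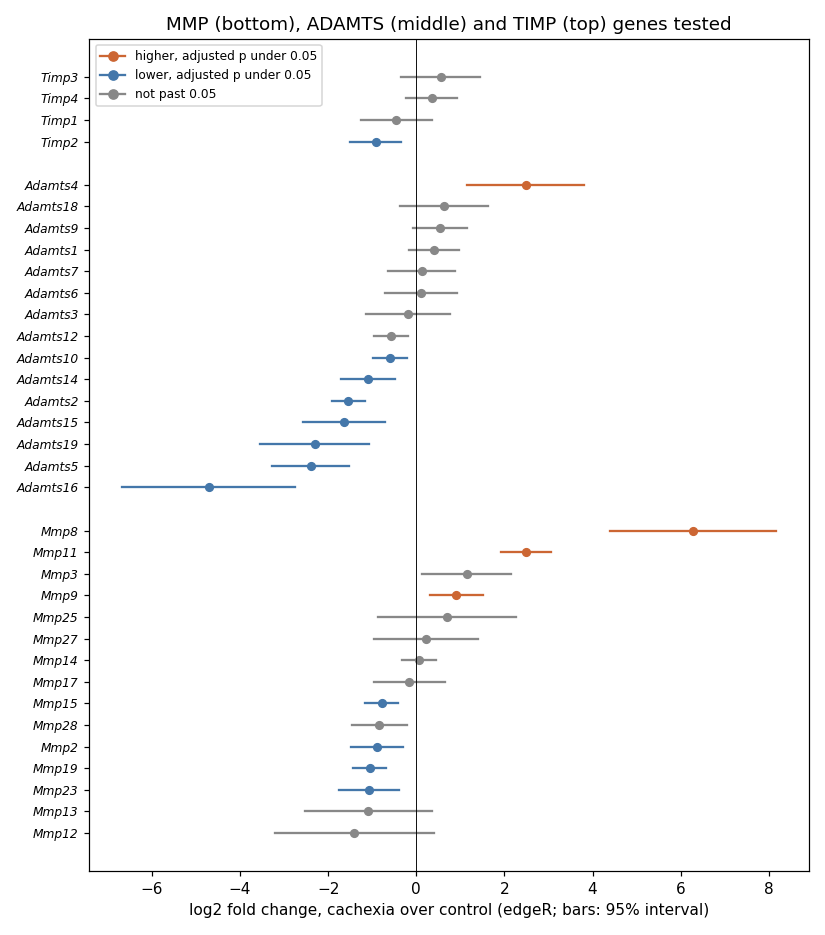
Log2 fold change of cachectic over control eWAT (x axis) for the 34 tested members grouped by family (y axis). Points are the fitted values and bars are 95% confidence intervals, with 3 samples per group and called genes coloured. The values run from -4.71 for Adamts16 to 6.28 for Mmp8, and 15 lie above 0 and 19 below.

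The calls rested on small groups, and 10 of the 16 were lost when some single library was left out. Adamts2, Adamts5, Adamts16, Mmp8, Mmp11 and Mmp19 kept an adjusted p under 0.05 in all 6 fits that left out 1 library. For Mmp8 and Adamts16, which had to differ in order to be tested, the kept call is no added support. The direction of all 16 was the same in each of the 6 fits.

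Of the collagenases, which make the first cut in fibrillar collagen, Mmp8 showed the widest change of any member. Mmp8, at chr9:7558456-7568485 (GRCm38, as for all coordinates here), is the collagenase that neutrophils store in their granules. Its level in the control samples was 0.10, 0.115 and 0.283 CPM, and in the cachectic samples it was 5.19, 8.48 and 26.4 CPM. Every cachectic sample was above every control sample, and cachexia replicate 3 was the highest. The underlying counts were 2, 2 and 5 in controls and 89, 138 and 403 in cachexia. Mmp8 thus rose by a log2 fold change of 6.28 with a standard error (SE) of 0.81 (adjusted p = 0.00366). Without cachexia replicate 3 the log2 fold change was 5.32. The 95% confidence interval, with only 9 counts in the control samples together, ran from 4.41 to 8.16.

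Markers of neutrophils moved with Mmp8. Of 16 neutrophil markers listed, 14 were tested, 12 were higher and none was lower, with a median log2 fold change of 4.02. Their summed level was between 24.6 and 28.4 CPM in the control samples, and it was 256, 245 and 795 CPM in cachexia replicates 1, 2 and 3. Cachexia replicate 3 was therefore highest for the neutrophil sum and for Mmp8 alike. Ly6g, a defining surface marker of these cells, had 0 counts in all control samples and 8, 10 and 6 counts in the cachectic samples. The granule gene Ngp had 0, 14 and 1 counts in controls and 139, 119 and 1623 in cachexia. Ly6g and Ngp were thus ordered differently among the cachectic samples, with cachexia replicate 3 lowest for Ly6g and highest for Ngp. Erythroid markers moved as well, with all 6 tested of 7 listed higher and a sum of between 252 and 451 CPM in controls against 1334 to 2856 CPM in cachexia. The part of these cells in the rise of Mmp8 was not tested.

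Mmp8 lies in a row of 9 protein-coding MMP genes on mouse chromosome 9, at chr9:7272514-7699585 in GRCm38, and it was the 1 gene called among the 5 genes of that row that were tested. In order along the chromosome the row holds Mmp13, Mmp12, Mmp1b, Mmp3, Mmp10, Mmp8, Mmp27, Mmp20 and Mmp7, over 427 kb. Genes of this row are known for a binding site of the transcription factor AP-1 close to the start of transcription, so the promoters were read from RefSeq (GRCm38.p6). The window held 250 bases before and 50 bases after the start site and was given for 31 of the 45 members. No window was at hand for Mmp2, Mmp9, Mmp16, Mmp17 and Mmp19, nor for Adamts4, Adamts5, Adamts6, Adamts7, Adamts8, Adamts10, Adamts15, Adamts16 and Adamts19. These genes, many of them called, were not searched. The AP-1 letters TGACTCA, or TGAGTCA on the other strand, were found for 6 of the 31 members searched, all of them in this row. Of all 32851 windows, 1709 (5.20%) held these letters. The stretches around the 6 matches are shown because most promoters of the row share this letter run, and capitals mark the match.
Mmp13, chr9:7272463-7272501, plus strand: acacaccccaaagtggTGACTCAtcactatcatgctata
Mmp12, chr9:7347314-7347352, plus strand: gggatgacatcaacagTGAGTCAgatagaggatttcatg
Mmp1b, chr9:7388097-7388135, minus strand: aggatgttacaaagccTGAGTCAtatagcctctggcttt
Mmp3, chr9:7445760-7445798, plus strand: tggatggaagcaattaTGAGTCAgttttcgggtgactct
Mmp10, chr9:7502263-7502301, plus strand: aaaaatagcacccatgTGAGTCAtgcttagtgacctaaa
Mmp7, chr9:7692011-7692049, plus strand: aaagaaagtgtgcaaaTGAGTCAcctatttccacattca

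The matches began between 35 and 93 bases before the start site. Of these 6 genes Mmp13, Mmp12 and Mmp3 were tested and not called, and Mmp1b, Mmp10 and Mmp7 were not tested. The windows of Mmp8, Mmp27 and Mmp20 did not hold these letters. The Mmp8 window did hold the letters ACTTCCTC (GAGGAAGT on the other strand), which begin 221 bases before the start site. They are a core of the sites of PU.1, a transcription factor of myeloid cells. Among the members this motif was also in windows of Mmp12 and Mmp7, and 1052 of all windows (3.20%) held it. The part of either motif in the levels of these genes was not tested. The 250 bases before the Mmp8 start site, the 1 promoter of the row whose gene rose, are shown with the PU.1 letters in capitals.
Mmp8 promoter, chr9:7558179-7558428, plus strand: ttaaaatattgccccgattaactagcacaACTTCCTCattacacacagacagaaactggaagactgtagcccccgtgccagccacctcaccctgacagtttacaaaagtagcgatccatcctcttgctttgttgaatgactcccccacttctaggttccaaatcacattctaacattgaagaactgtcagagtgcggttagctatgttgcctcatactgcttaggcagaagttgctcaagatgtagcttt

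Mmp3, stromelysin-1, was low, with 0.753, 1.95 and 0.963 CPM in controls and 2.97, 2.89 and 2.23 CPM in cachexia. The groups did not overlap, but the log2 fold change of 1.14 (SE 0.44) did not pass after adjustment (adjusted p = 0.108). Mmp12, the macrophage elastase, varied widely among the replicates of each group. Its level was 32.3, 15.2 and 79.2 CPM in controls and 3.03, 16.6 and 28.2 CPM in cachexia, and the interval of its log2 fold change reached from -3.21 to 0.40 (adjusted p = 0.244). Mmp13, collagenase-3, had at most 17 counts in any library (log2 fold change -1.09, adjusted p = 0.256), and Mmp27 had at most 26 (log2 fold change 0.22, adjusted p = 0.796). Mmp10 had no more than 2 counts in a library, and Mmp20 none in any.

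Mmp7, matrilysin, which is made mainly by epithelia, was present in essentially 1 library. It had 1839 counts in control replicate 1, 15 in cachexia replicate 1, 1 in control replicate 3 and 0 in the remaining 3 libraries. It was not tested. The 107 genes that control replicate 1 held almost alone included the epithelial genes Epcam, with 935 counts there and 2 to 11 elsewhere, and Cdh16, with 1119 counts there and 0 to 3 elsewhere, both chosen after their values were seen. Mmp7 was therefore not compared between the groups, and it made up 40.4% of the summed MMP level in that library.

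**Figure D2:**
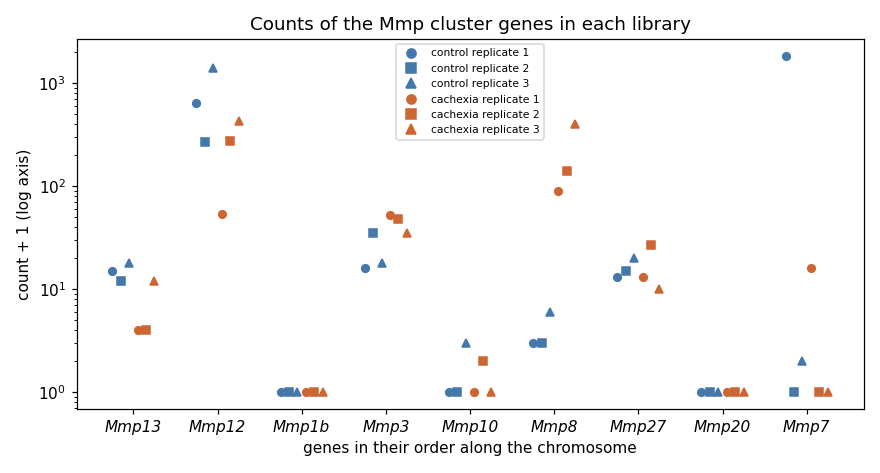
Counts plus 1 on a log axis (y) for the 9 MMP genes of chromosome 9 in their order along the chromosome (x), with 1 point per library. Mmp8 is at 2 to 5 counts in the control libraries and 89 to 403 in the cachectic libraries, and Mmp7 reaches 1839 counts in control replicate 1.

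The 2 gelatinases, which cut denatured collagen and basement membrane collagen, moved in opposite directions. Mmp2 (gelatinase A, chr8:92827291-92853420), made largely by stromal cells, stood at 148, 101 and 132 CPM in controls and at 80.4, 80.5 and 44.2 CPM in cachexia. Every cachectic sample was below every control sample. Mmp2 fell by 0.90 on the log2 scale (SE 0.25, adjusted p = 0.0467), a decrease of 1.86-fold. Mmp9 (gelatinase B, chr2:164940780-164955850), made by neutrophils and macrophages among others, stood at 20.4, 34.2 and 19.8 CPM in controls and at 55.1, 49.3 and 34.7 CPM in cachexia. The groups stayed apart by a narrow margin, 34.2 against 34.7 CPM. The rise of Mmp9 was 1.87-fold (log2 fold change 0.90, SE 0.26, adjusted p = 0.0488).

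Both gelatinases were close to the threshold. Mmp2 passed it in none of the 6 fits without 1 library (adjusted p between 0.0584 and 0.134), and Mmp9 did not pass without control replicate 1 or 3 or without cachexia replicate 1 or 2 (between 0.109 and 0.166). Limma on log2(FPKM + 0.1) and log2(FPKM + 1) gave 0.0561 and 0.0603 for Mmp9, and the latter gave 0.0527 and plain library totals 0.0619 for Mmp2. Per length, Mmp2 was the most abundant MMP of the control samples at 37.3 ± 7.03 FPKM (SD, n = 3) and was at 19.8 ± 6.08 FPKM in cachexia, while Mmp9 went from 6.91 ± 2.26 to 12.8 ± 2.92 FPKM. Mmp9 was lowest of the cachectic samples in replicate 3 (34.7 CPM), where the neutrophil sum and Mmp8 were highest. Of the markers of macrophages, which also make Mmp9, 2 were higher and 2 lower of 13. Their sums overlapped between groups, with 1644 to 2106 CPM in controls and 1394 to 2175 CPM in cachexia. The part of neutrophils and of macrophages in the level of Mmp9 was not tested.

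Activation of pro-Mmp2 takes place on the cell surface through Mmp14, the first membrane-type MMP, with Timp2 as the adaptor between them. Timp2 fell together with Mmp2, whereas the level of Mmp14 stayed within the spread of the samples. Timp2, at chr11:118301069-118355740, was at 859, 715 and 779.9 CPM in controls and at 490.2, 481 and 271 CPM in cachexia, so that all cachectic samples were below all controls. It fell by 0.92 on the log2 scale (SE 0.25, adjusted p = 0.0407). Mmp14 was at 104, 87.1 and 91.8 CPM in controls and at 102, 113 and 77.6 CPM in cachexia. Its log2 fold change was 0.05 with an interval from -0.33 to 0.44 (adjusted p = 0.852). All 3 genes were lowest in cachexia replicate 3.

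The other membrane-type MMPs were less abundant. Mmp15, the second membrane-type MMP, fell from 36.7, 39.5 and 35.5 CPM to 26.4, 19.0 and 19.5 CPM. The control samples were close to each other and all above the cachectic samples. The log2 fold change was -0.78 (SE 0.16, adjusted p = 0.0175), and the call was lost without control replicate 2 or 3 (adjusted p of 0.0659 to 0.0685). Mmp17 was between 3.25 and 6.53 CPM over all samples and was not called (adjusted p = 0.792). Mmp25, a membrane-type MMP of leukocytes, was at 1.30, 1.03 and 0.850 CPM in controls and at 0.642, 0.860 and 3.74 CPM in cachexia. Only cachexia replicate 3, the sample with the highest neutrophil sum, was above the controls, and the part of neutrophils in this was not tested. Mmp25 was not called (log2 fold change 0.70, adjusted p = 0.507), and without that library its log2 fold change was -0.50. Mmp16 and Mmp24 had at most 10 counts in a library and were not tested.

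Mmp11 rose with the smallest adjusted p-value of all members. Mmp11, or stromelysin-3, is activated inside the cell by the protease furin and is known from stromal cells around tumors and from tissue that is being remodelled. It was at 14.2, 18.2 and 10.5 CPM in controls and at 76.5, 99.8 and 64.8 CPM in cachexia. The lowest cachectic sample was well above the highest control. The rise was 5.63-fold, with a log2 fold change of 2.49 (SE 0.24, 95% confidence interval 1.93 to 3.05, adjusted p = 0.00162), and it held without any 1 library. With 5.08 ± 1.36 FPKM in controls and 28.3 ± 6.24 FPKM in cachexia (SD, n = 3), Mmp11 had the highest mean level per length of all MMPs in the cachectic samples.

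The Mmp11 gene, at chr10:75923222-75936496, shares 155 of its 2778 exon bases (5.58%) with Chchd10, a mitochondrial gene on the opposite strand. Chchd10 rose as well, from a mean of 23.2 to 143 CPM (log2 fold change 2.63, SE 0.33, adjusted p = 0.00352). Whether the counting used strand is not given in the sources used here, so that the reads of the shared bases cannot be assigned to 1 of the 2 genes. Furin, the activator, was tested and was not called, with a log2 fold change of 0.19.

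Of the remaining MMPs, 2 fell. Mmp19, a widely expressed MMP that cuts basement membrane proteins, went from 50.9, 68.4 and 71.5 CPM to 33.0, 28.8 and 29.6 CPM. The cachectic samples were close together and all below the controls. Mmp19 fell by 1.06 on the log2 scale (SE 0.16, adjusted p = 0.00583), and this held in each fit without 1 library. Tmem198b overlaps 22.3% of the Mmp19 exon bases, and it was not called (log2 fold change 0.25, adjusted p = 0.481).

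Mmp23, an MMP anchored by its N-terminal part and short of the usual haemopexin domain, went from 43.6, 27.2 and 28.2 CPM to 21.5, 10.4 and 15.3 CPM. The groups did not overlap. Its log2 fold change of -1.07 (SE 0.29, adjusted p = 0.0435) lost the call without any single library other than cachexia replicate 1 (0.0742 to 0.104), and with plain library totals (0.0560). Mmp28, epilysin, had 34.4, 58.0 and 53.9 CPM in controls and 32.7, 31.0 and 18.2 CPM in cachexia. The groups did not overlap, and the log2 fold change of -0.84 did not pass (adjusted p = 0.0696).

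**Figure D3:**
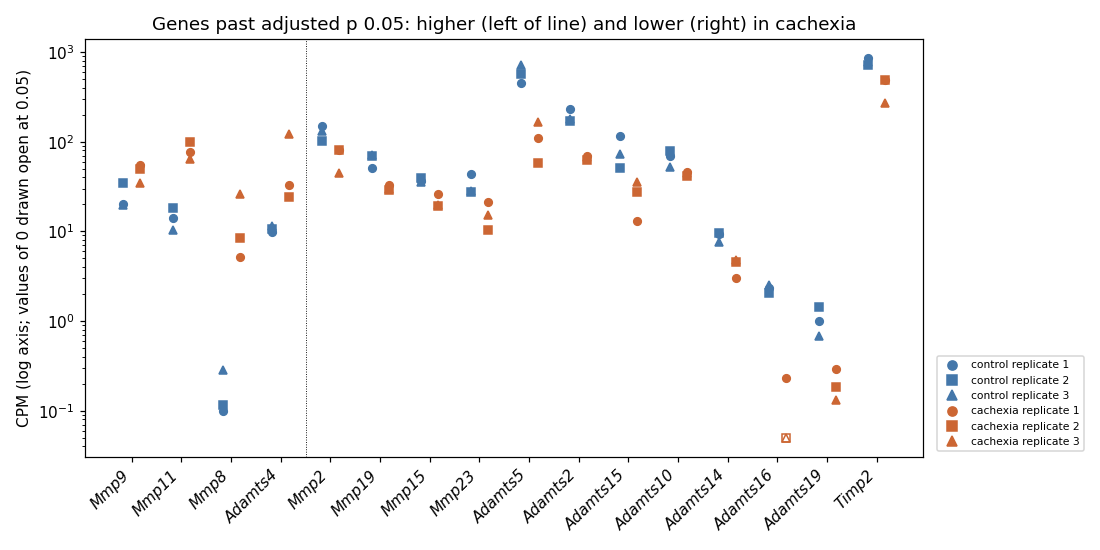
CPM on a log axis (y) of the 16 called members (x) in each of the 6 samples, controls in blue and cachectic samples in orange, with values of 0 drawn open at 0.05. The 4 members left of the dotted line were higher in cachexia and the 12 to its right were lower, and the widest spread among cachectic samples is that of Adamts4 (24.3 to 121 CPM) and Mmp8 (5.19 to 26.4 CPM) among the higher members.

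The proteoglycan-cleaving ADAMTS proteases split as well. Of 7 such members 5 were tested, of which Adamts4 rose, Adamts5 and Adamts15 fell, and Adamts1 and Adamts9 were not called. Adamts4 and Adamts5 are the main aggrecanases of cartilage, and both also cut versican. Adamts5 was the most abundant ADAMTS protease per length in the control samples, at 53.0 ± 12.3 FPKM, and was at 9.98 ± 4.80 FPKM in cachexia (SD, n = 3).

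Adamts5, at chr16:85856173-85901828, was at 447, 573 and 717 CPM in controls and at 109, 57.9 and 164 CPM in cachexia. The lowest control was more than 2 times the highest cachectic sample. Adamts5 fell by 2.39 on the log2 scale (SE 0.38, 95% confidence interval -3.26 to -1.52), a decrease of 5.25-fold, and the call (adjusted p = 0.00705) held in every fit without 1 library. Adamts15, which also cuts versican, fell from 114, 50.7 and 72.9 CPM to 13.2, 27.6 and 35.5 CPM. The controls varied widely but stayed above all cachectic samples. Its log2 fold change was -1.64 (SE 0.40, adjusted p = 0.0292), and it was lost without control replicate 1 or 3 or cachexia replicate 1 or 2 (0.0545 to 0.0786).

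Adamts4, at chr1:171250421-171260637, was at 9.73, 10.7 and 11.6 CPM in controls and at 32.8, 24.3 and 121 CPM in cachexia. All cachectic samples were above the controls, and cachexia replicate 3 was far above the other 2. The log2 fold change was 2.48 (SE 0.58, adjusted p = 0.0249), a rise of 5.59-fold, and it was 1.43 without cachexia replicate 3. The call held without any cachectic library and was lost without any control library (0.0648 to 0.0864), with limma-voom (0.0558) and with limma on log2(FPKM + 1) (0.0591).

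Adamts1, made by endothelial and stromal cells among others, was the second most abundant ADAMTS protease per length over all samples and was not called. It was at 145, 124 and 125 CPM in controls and at 182, 112 and 226 CPM in cachexia. Its groups overlapped through cachexia replicate 2, and without that library alone it passed the threshold (log2 fold change 0.64, adjusted p = 0.0481, against 0.40 and 0.286 with all samples). Adamts9, another versican-cleaving member, was at 59.8 to 88.4 CPM in controls and 78.7 to 156 CPM in cachexia (log2 fold change 0.54, adjusted p = 0.189). Endothelial markers rose in the same samples, with 4 of 8 higher, none lower, and sums of 1435 to 1501 CPM in controls and 2112 to 3239 CPM in cachexia, and their part in the levels of Adamts1, Adamts4 and Adamts9 was not tested. The sum of those markers was highest in cachexia replicate 2, where Adamts1, Adamts4 and Adamts9 were each lowest of the 3 cachectic samples. Adamts8 and Adamts20 had at most 39 counts in a library and were not tested.

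The substrate versican (Vcan) fell too, from a mean of 53.3 to 26.5 CPM (log2 fold change -1.01, adjusted p = 0.0151). Aggrecan (Acan) was not abundant enough to be tested.

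The 3 procollagen N-proteinases remove the N-terminal propeptide of fibrillar procollagens, and the 2 of them that fell were the more abundant. Adamts2, at chr11:50602084-50807573, was at 231, 169 and 178 CPM in controls and at 69.0, 62.3 and 67.5 CPM in cachexia. The cachectic samples lay close together and far below all controls. Adamts2 fell by 1.54 on the log2 scale (SE 0.16, 95% confidence interval -1.91 to -1.17, adjusted p = 0.00196), a decrease of 2.91-fold. This call held in all other settings tried.

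Adamts14 was at 9.43, 9.51 and 7.59 CPM in controls and at 3.03, 4.54 and 4.79 CPM in cachexia, again without overlap. Its log2 fold change was -1.10 (SE 0.26, adjusted p = 0.0274), and the call held without cachexia replicate 3 but not without any other 1 library (0.0542 to 0.0945). Adamts3 was at or below 1.92 CPM in all samples and was not called, with an interval of its log2 fold change from -1.14 to 0.75.

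Of the C-proteinases, which act at the other end of procollagen, and their enhancers, Bmp1 and Pcolce fell, Tll1 rose and Pcolce2 was not called. Bmp1, the protease that removes the C-terminal propeptide, fell from a mean of 90.3 to 43.5 CPM (log2 fold change -1.06, adjusted p = 0.00374). Pcolce, which enhances Bmp1, fell from 83.8 to 32.0 CPM (log2 fold change -1.39, adjusted p = 0.00974). Its relative Pcolce2 had a log2 fold change of -0.75 and was not called (adjusted p = 0.0650). Tll1, a relative of Bmp1, rose instead (log2 fold change 1.22, adjusted p = 0.0476), close to the threshold. How the calls of these listed genes hold without single libraries is not given.

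The fibrillar collagens that these enzymes process fell as well. Col3a1 went from a mean of 2475 to 272 CPM (log2 fold change -3.18, adjusted p = 0.00212). For Col1a1 and Col1a2, the chains of type I collagen, the log2 fold changes were -2.61 and -2.25 (adjusted p of 0.00564 and 0.00382). Of the fibroblast and progenitor markers, a further group that moved in these samples, 3 were lower and 1 was higher of 8, with sums of 3075 to 3561 CPM in controls and 2199 to 3048 CPM in cachexia. Of these markers Lum and Dcn also stand in the list of matrix substrates. None was at 0 in any sample, and their part in the fall of the proteases was not tested.

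**Figure D4:**
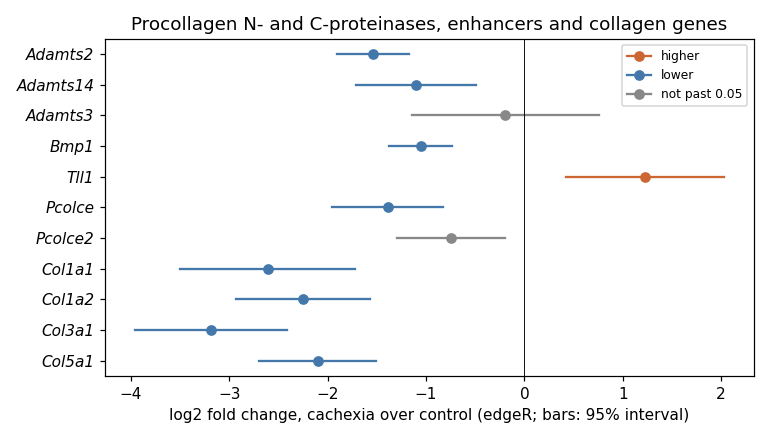
Log2 fold change of cachectic over control eWAT (x axis) for the procollagen N-proteinases, the C-proteinases Bmp1 and Tll1, their enhancers and 4 fibrillar collagen chains (y axis), with 95% confidence intervals from 3 samples per group. Adamts2 is at -1.54 and Bmp1 at -1.06, the collagen chains reach -3.18, and Tll1 is above 0 at 1.22.

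Of the other 9 ADAMTS proteases 7 were tested, 3 fell and none rose. Adamts16 was at 2.31, 2.06 and 2.55 CPM in controls, and had 0.233 CPM in cachexia replicate 1 and no count in the other 2 cachectic samples. Its counts were 46, 36 and 45 in controls and 4, 0 and 0 in cachexia. The fitted log2 fold change of -4.71 (SE 0.85, adjusted p = 0.0109) rests on these 4 counts. Without cachexia replicate 1 both remaining cachectic samples were at 0. The fitted log2 fold change was then -8.32, and with no cachectic count its size cannot be read. The adjusted p stayed under 0.05 in every fit without 1 library, at most 0.0481.

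Adamts10, which binds the fibrillin microfibrils, fell from 69.5, 79.1 and 52.2 CPM to 46.5, 41.3 and 44.8 CPM. The groups did not overlap, and the step was small (log2 fold change -0.60, SE 0.17, adjusted p = 0.0443). The call was lost without any library but control replicate 3 (0.0842 to 0.140), with limma-voom (0.0529), on FPKM (0.0559 and 0.0600), with plain library totals (0.0704) and among protein-coding genes alone (0.0507). Fbn1, fibrillin-1 itself, fell by 1.66 on the log2 scale. Adamts19 was low, at 1.00, 1.43 and 0.680 CPM in controls and 0.292, 0.184 and 0.131 CPM in cachexia. It was called lower (log2 fold change -2.31, SE 0.53, adjusted p = 0.0248), but not without any library other than cachexia replicate 1 (0.0533 to 0.0942), nor with no filter (0.0596), nor on log2(FPKM + 1) (0.0945).

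Adamts12, which like Adamts7 cuts cartilage oligomeric matrix protein, just missed the threshold. It was at 80.0, 109 and 119.8 CPM in controls and at 74.3, 66.1 and 67.3 CPM in cachexia, without overlap (log2 fold change -0.57, SE 0.17, adjusted p = 0.0517), and it passed in 4 of the 16 other settings. Adamts7 was at 10.3, 10.8 and 12.5 CPM in controls and at 10.7, 18.7 and 7.15 CPM in cachexia, with no call (adjusted p = 0.831). Adamts6 and Adamts18 were not called either (adjusted p of 0.866 and 0.345). Adamts13, the protease of von Willebrand factor, had at most 7 counts in a library, and Adamts17 at most 14.

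Among the inhibitors, the fall of Timp2 was the 1 call, and none of the 4 TIMPs was called higher. By DESeq2 and by limma-voom 0 TIMPs were higher, and at an unadjusted p under 0.05 by edgeR 0 were. The Timp2 call was lost without any 1 library other than cachexia replicate 3 (adjusted p of 0.0580 to 0.120) and with plain library totals (0.0504). Timp3, which binds to the matrix and inhibits ADAMTS proteases too, was at 188, 245 and 212 CPM in controls and at 324, 483 and 140.1 CPM in cachexia. In 2 cachectic samples it was above all controls, and in cachexia replicate 3 below all of them. It was not called (log2 fold change 0.56, interval -0.34 to 1.45, adjusted p = 0.349), but without cachexia replicate 3 it was (0.92, adjusted p = 0.0389). Syn3, whose intron hosts Timp3 on the other strand, shares 21.3% of the Timp3 exon bases and was not called (log2 fold change 0.28, adjusted p = 0.737).

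Timp4, an inhibitor known from heart and fat, was at 283, 366 and 319.7 CPM in controls and at 417, 276 and 539 CPM in cachexia. The groups overlapped through cachexia replicate 2, and the log2 fold change was 0.35 with an interval from -0.23 to 0.93 (adjusted p = 0.366). Timp1, a secreted inhibitor that is induced in many inflamed tissues, was low here. It was at 4.36, 3.61 and 3.00 CPM in controls and at 1.87, 2.64 and 3.54 CPM in cachexia (log2 fold change -0.45, interval -1.25 to 0.35, adjusted p = 0.400).

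The make-up of each family was then compared by summing FPKM over all members, tested or not. The TIMP sum was 283 ± 9.42 FPKM in controls and 213 ± 30.5 FPKM in cachexia (SD, n = 3). Timp2 made up 74.4, 65.6 and 70.5% of it in controls and 52.8, 53.1 and 38.2% in cachexia. In cachexia replicate 3 Timp4 was the most abundant inhibitor, with 50.2% of the sum. The order by mean FPKM over all samples was Timp2 at 151, Timp4 at 61.1, Timp3 at 32.0 and Timp1 at 3.51. In cachexia replicates 1, 2 and 3 Timp2 was at 123, 121 and 68.0 FPKM and Timp4 at 69.4, 45.7 and 89.2 FPKM, so that Timp2 was the higher of the 2 in replicates 1 and 2 and the lower in replicate 3.

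The ADAMTS sum was 140 ± 7.37 FPKM in controls and 88.9 ± 27.8 FPKM in cachexia. The leading member changed from Adamts5 to Adamts1. Adamts5 led in all control samples, with 30.3, 38.7 and 44.3% of the sum, and Adamts1 led in all cachectic samples, with 40.1, 32.1 and 35.0%. The sum itself varied among cachectic samples, with 84.0, 63.9 and 119 FPKM.

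The MMP sum depended on Mmp7. With it the sum was 153 ± 51.7 FPKM in controls and 114 ± 13.7 FPKM in cachexia, and without it 124 ± 6.06 and 113 ± 13.5 FPKM (SD, n = 3). Mmp2 led in control replicates 2 and 3 and Mmp7 in control replicate 1. In cachexia Mmp11 led in all 3 samples, with 22.5, 28.6 and 23.2% of the sum. By an exact two-sided permutation test over the 6 samples, the p was 0.1 for the ADAMTS and the TIMP sums, which did not overlap between groups, and 0.3 for the MMP sum with or without Mmp7. The adjusted p over these 4 tests was 0.2 and 0.3, and 0.1 is the smallest p that this test can give with 3 samples against 3. The shares of single members were not tested.

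**Figure D5:**
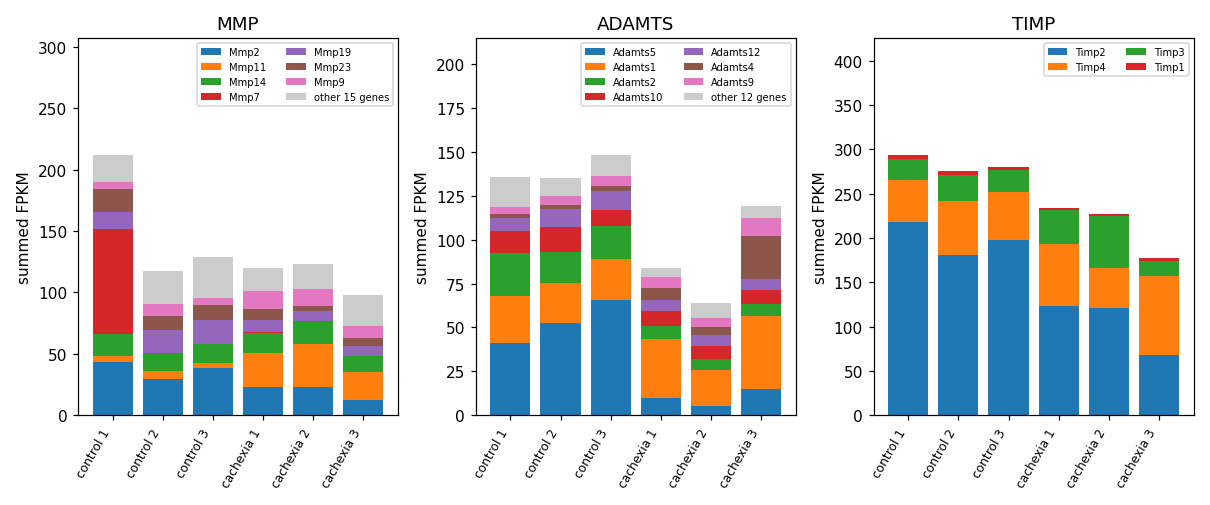
Summed FPKM (y axis) of the MMP, ADAMTS and TIMP families in each of the 6 samples (x axis), stacked by member. The TIMP bars are mostly Timp2 in controls (65.6 to 74.4%) and less so in cachexia (38.2 to 53.1%), Adamts5 gives way to Adamts1 as the largest ADAMTS segment, and the Mmp7 segment is 40.4% of the bar of control replicate 1.

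Other genes of the protease system were read from lists of activators and regulators, ADAM proteases and matrix substrates. Of 29 activators and regulators, 26 were tested, 3 were higher and 5 lower, with a median log2 fold change of -0.24. Pcsk5, a convertase that activates proproteins, rose (log2 fold change 1.53, adjusted p = 0.0106), as did Tll1 and Spock2. Serpine2, an inhibitor of thrombin and plasminogen activators, fell by 1.12 on the log2 scale (adjusted p = 0.00564), and Adamtsl4, an ADAMTS-like protein without protease activity, fell by 1.17. Bmp1, Pcolce and Ccbe1 made up the rest of the lower genes. Reck, a membrane-bound MMP inhibitor, was not called (log2 fold change -0.53, adjusted p = 0.145).

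Of 13 ADAM proteases, the membrane-bound relatives of the ADAMTS family, 11 were tested, 4 were lower and none was higher, with a median of -0.29. Adam12, known from regenerating muscle and from fat cell formation, fell from a mean of 54.3 to 7.16 CPM (log2 fold change -2.92, adjusted p = 0.00105). Adam23, which lacks protease activity, fell by 2.02 on the log2 scale (adjusted p = 0.00204).

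Matrix substrates showed the lowest median of the 3 lists, -0.84. Of 36 substrates 30 were tested, 14 were lower and 2 were higher. The lower ones included the collagen chains Col1a1, Col1a2, Col3a1, Col5a1 and Col6a1, fibronectin (Fn1, log2 fold change -2.18) and the basement membrane protein nidogen-2 (Nid2, -2.11). The 2 that rose were the thrombospondins Thbs1 (log2 fold change 3.39, adjusted p = 0.0184) and Thbs2 (3.10, adjusted p = 0.00748), matricellular proteins that bind proteases and growth factors.

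Of the cell markers not yet described, 1 of 7 mural cell markers was lower and none was higher, with sums of 1040.5 to 1332 CPM in controls and 527 to 856 CPM in cachexia. By edgeR 0 of 7 mesothelial and 0 of 7 tested B and T cell markers were called, with 1 and 3 at an unadjusted p under 0.05, and DESeq2 and limma-voom called 0 of the first and 1 of the second each. Mesothelial sums overlapped between groups (317 to 418 CPM in controls, 190.3 to 417 CPM in cachexia), and B and T cell sums did not (9.28 to 15.9 CPM and 5.24 to 8.66 CPM). The counts of 0 given above for lower neutrophil or endothelial markers, higher mural markers, higher ADAM proteases and higher members among the other ADAMTS proteases were 0 as well at an unadjusted p under 0.05 and by DESeq2 and limma-voom. The part of these cell types in the fall of Mmp2, Timp2, Adamts2 and Adamts5 was not tested.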

How the data were processed

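The authors extracted RNA from eWAT, made libraries with a NEBNext Ultra kit, aligned reads with Hisat2 and obtained gene counts from FeatureCounts (1.5.0-p3 in the submitters' processing notes, which also name DESeq2 1.16.1). The counts were deposited by the authors without normalization. The deposited FPKM values divide counts by gene length and library size and carry a further factor per sample of 0.932 to 1.06. The notes name build mm9, but the coordinates of 44 of the 45 members equal those of GENCODE M21 (GRCm38), which are used here. The authors' table of fold changes and p-values was not used, and 0 columns of per-sample values were left unmapped.

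Samples were grouped by their labels. Counts were fitted with edgeR 4.0.16 in R 4.3.3 (filterByExpr, TMM factors between 0.937 and 1.07, quasi-likelihood test, Benjamini-Hochberg over 16003 genes, threshold 0.05). The biological coefficient of variation was 0.264. DESeq2 1.42.0, limma 3.58.1 and other scalings, filters and samples were alternatives, and the procedure was tested on simulated data. All members are named, and of the lists, up to 6 called genes each with the smallest p and a log2 fold change of 1 or more in size, plus genes of the same step. Members, lists and tests were chosen with earlier results of these data known.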

Additional observations from a re-analysis of the deposited data

How the results depend on the processing

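Across 16 other settings, the 16 called members gave 253 values, of which 0 reversed and 65 no longer passed the threshold, 21 of them in settings that kept all libraries. Adamts16, Adamts19, Mmp8, Mmp13 and Mmp27 were not tested with a minimum of 10 counts in every sample. With plain library totals 2 MMPs were lower beside 3 higher (against 4 and 3), and 0 TIMPs were lower, where 1477 of all genes were higher and 1151 lower. Limma-voom and limma on log2(FPKM + 1) called 0 ADAMTS proteases higher. DESeq2 called 1955 genes higher and 1929 lower, with 3 MMPs higher and 5 lower and 1 ADAMTS protease higher and 8 lower. Leaving out 1 library gave 382 to 1197 genes higher and 446 to 1142 lower, 2 to 3 MMPs higher and 1 to 3 lower, 0 to 2 ADAMTS proteases higher and 3 to 5 lower, and 0 to 1 TIMPs higher and 0 to 1 lower, with fewer samples by construction.

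The replicate numbers did not pair the samples (correlations of deviations of -0.003, -0.011 and 0.008 for samples of the same number). With the number as a replicate block 913 genes were higher and 968 lower, with 3 ADAMTS proteases and 0 TIMPs lower. Of the called members, Mmp2 (0.0629), Adamts10 (0.0813), Adamts14 (0.0631), Adamts15 (0.0675), Adamts19 (0.0509) and Timp2 (0.0602) then had an adjusted p above the threshold.

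Signs changed in 10 fits without 1 library for 7 members that were not called. Over these fits the log2 fold change ranged from -0.51 to 0.031 for Adamts3, -0.22 to 0.40 for Adamts6, -0.32 to 0.39 for Adamts7, -0.063 to 0.20 for Mmp14, -0.57 to 0.020 for Mmp17, -0.50 to 1.10 for Mmp25 and -0.35 to 0.48 for Mmp27. The cause was not tested. Apart from Mmp7, the members not tested had at most 39 counts in a library. Mmp13, Mmp27 and Adamts18 were tested at low counts and were not called, whereas Adamts19, with at most 25 counts in a library, was called. How large a difference could be detected at such counts was not tested.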
